A study of Arabidopsis thaliana with 10 samples.

Results

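The subject is the set of LIMYB chromatin peaks that lie across the 5′ end of a nuclear gene in Arabidopsis seedlings. A peak was a member when the authors' annotation placed it over the start of its assigned gene, so that it began upstream of the gene and ended inside it. On chromosomes 1 to 5, 522 of 9604 peaks in line L1 and 498 of 8952 peaks in line L4 met this rule. The 1020 members came from 18556 nuclear peaks in all. The seedlings carried YFP-LIMYB, a tagged transgene, and are labelled as a LIMYB overexpression line; chromatin was precipitated with an anti-GFP antibody. L1 had 2 samples and L4 had 4, all of that same genotype and tissue with no treatment named, and no untagged or input sample is among them. The labels name neither the promoter of the transgene nor whether the lines are separate insertions. A further line, L3, had 4 samples and no nuclear peak.

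LIMYB is a MYB-domain transcriptional repressor that acts within antiviral signalling, downstream of the receptor kinase NIK1, and ribosomal protein genes are among its known targets. The 5′ end of a gene is where transcription begins. The core promoter lies just upstream of it, and the transcribed leader and the first coding bases lie just downstream. Peaks across this boundary therefore touch the stretch of DNA where RNA polymerase II is loaded.

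Each line has 1 peak list with no column per sample, so no value below has a replicate error and no test between lines or between classes of peak was possible. Shares are given with 95% Wilson intervals, which hold the error of counting alone, and neighbouring peaks are not independent. The deposited pileup is the number of overlapping fragments at the summit, the highest point of a peak. The deposited fold enrichment is a ratio of signal to a background that the file headers do not name. Sequencing depth per sample is unknown. Positions are those of the files, whose genome build no source used here names.

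Peaks across the 5′ end were a small class in both lines. They made up 5.44% of nuclear peaks in L1 (interval 5.0 to 5.91) and 5.56% in L4 (5.11 to 6.06). Peaks across the 3′ end were slightly more frequent, with 6.64% in L1 (6.16 to 7.16) and 7.09% in L4 (6.58 to 7.64). Most of the remaining peaks lay upstream of, inside or downstream of the assigned gene. With only peaks within 10000 bp of their gene as the denominator, the 5′-end share was 6.18% in L1 and 6.27% in L4. On single chromosomes it lay between 5.08% and 5.77% in L1, and between 4.68% on chromosome 3 and 6.51% on chromosome 2 in L4. Genes on the plus strand had 252 members in L1 and 218 in L4, and genes on the minus strand had 270 and 280.

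**Figure D1:**
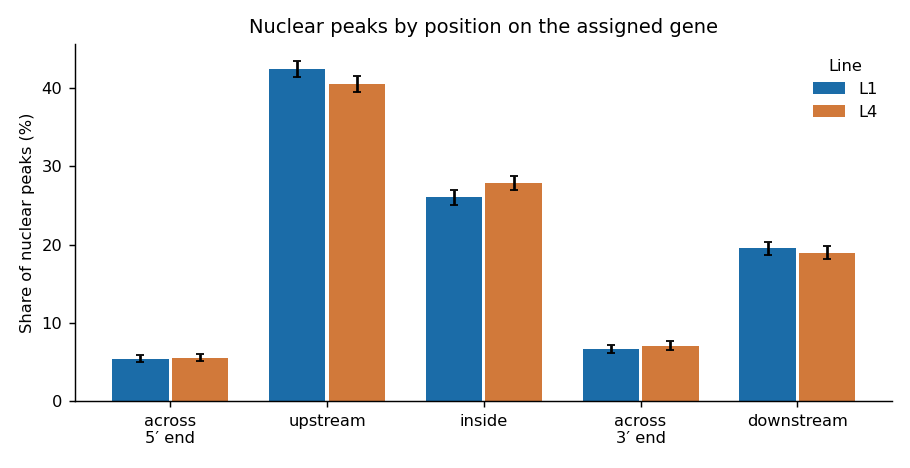
Share of nuclear peaks (%, vertical axis) by position relative to the assigned gene (horizontal axis) in L1 and L4; bars are shares and whiskers are 95% Wilson intervals. Peaks across the 5′ end stand at 5.44% in L1 and 5.56% in L4, below those across the 3′ end at 6.64% and 7.09%.

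Width and enrichment of the members were close to those of other peaks. Median width was 232 bp in L1 and 246 bp in L4, against 224 and 238 bp for all other nuclear peaks. A wide peak reaches a gene start more easily, and the members' share was 6.21% among the 2401 widest L1 peaks (268 bp or more) and 5.05% among the 2534 narrowest (204 bp or less). In L4 it was 7.04% among the 2230 widest (296 bp or more) and 4.85% among the 2351 narrowest (206 bp or less). The L1 members had a median fold of 9.28, with quartiles of 7.83 and 11.49, beside 8.65 for all other L1 peaks. The L4 members had a median of 11.68, with quartiles of 9.34 and 15.57, beside 11.63 for the others. The order-statistic interval of the L1 median, 8.88 to 9.40, lay above that of the other peaks, 8.50 to 8.80. L1 peaks across the 3′ end had the same interval, 8.88 to 9.40, so this was not particular to the members. In L4 the intervals overlapped, with 10.90 to 12.45 for members and 11.41 to 11.68 for the others. L4 peaks across the 3′ end had 11.68 to 12.45.

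Many folds were tied to the pileup by 1 constant. In L1, 210 of 522 members (40.2%) had the same ratio of pileup plus 1 to fold, 2.0 after rounding to 1 decimal. In L4, 194 of 498 members (39.0%) shared a ratio of 1.4. Among all other nuclear peaks 35.9% in L1 and 42.1% in L4 had these ratios. Ties therefore recur, such as a fold of 9.4 at a pileup of 18 in L1. The highest L1 member, at PHO2, ranked 48 of 9604 nuclear peaks by fold, and the highest L4 member, at PDE334, ranked 29 of 8952. Of the 962 L1 peaks with the highest folds, 54 were members (5.61%, 4.33 to 7.25). Of the 897 highest in L4, 62 were members (6.91%, 5.43 to 8.76). Both intervals include the members' share of all nuclear peaks.

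The rule requires a peak to cover the gene start but leaves open on which side its summit falls, and in both lines most summits fell on the promoter side. In L1, 339 of 522 summits (64.9%, 60.8 to 68.9) lay upstream of the 5′ end, 182 downstream and 1 exactly on it. In L4, 318 of 498 (63.9%, 59.5 to 68.0) lay upstream, 179 downstream and 1 on it. The median summit was 33.0 bp upstream in L1 and 36.5 bp upstream in L4. The 25-bp bin with the most summits ran from 75 to 50 bp upstream in both lines, with 70 summits in L1 and 66 in L4. Within 100 bp of the 5′ end lay 401 summits in L1 (76.8%) and 352 in L4 (70.7%). Members reached a median of 150 bp upstream and 85.5 bp downstream in L1, and 156 bp and 93.5 bp in L4. At peaks across the 3′ end the summit lay outside the gene in 46.9% of 638 L1 peaks (43.0 to 50.7) and in 50.6% of 635 L4 peaks (46.7 to 54.4).

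**Figure D2:**
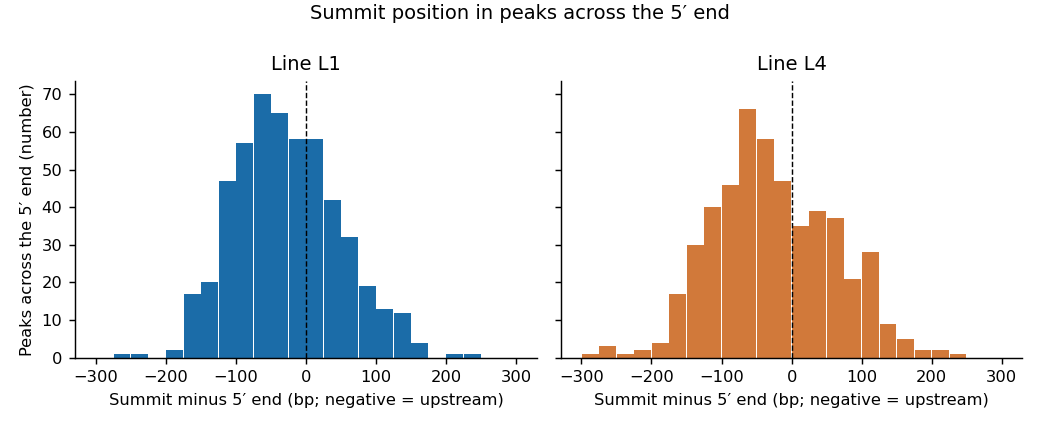
Number of peaks across the 5′ end (vertical axis) by the distance of the summit from the 5′ end in 25-bp bins (horizontal axis, negative values upstream), for L1 (left) and L4 (right); the dashed line is the 5′ end. Both distributions have their highest bin from 75 to 50 bp upstream, with 70 summits in L1 and 66 in L4.

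Fold differed little by the side of the summit. Median fold was 9.38 for upstream and 9.24 for downstream summits in L1, and 11.68 for both in L4. At the edge of the rule the members' median folds were somewhat below those of all members, 9.28 in L1 and 11.68 in L4, with no test of the difference. In L1, 74 members ended within 20 bp downstream of the gene start (median fold 8.77), and 70 upstream peaks stopped within 20 bp short of it (8.73). In L4 these were 47 members (10.90) and 72 upstream peaks (11.68). On the gene side, 14 L1 and 20 L4 members began within 20 bp upstream of the start (8.51 and 10.54), and 24 and 21 inside peaks began within 20 bp after it (9.20 and 12.45).

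Most members overlapped no peak of the other line. In L1, 223 of 522 (42.7%, 38.5 to 47.0) overlapped an L4 peak by at least 1 bp, and in L4, 217 of 498 (43.6%, 39.3 to 48.0) overlapped an L1 peak. Among all other nuclear peaks these shares were 45.1% in L1 (44.1 to 46.1) and 48.5% in L4 (47.4 to 49.6). Peaks across the 3′ end were shared more often, with 54.9% in L1 (51.0 to 58.7) and 55.7% in L4 (51.9 to 59.6). Peaks inside genes were shared in 40.6% in L1 and 41.2% in L4. No test of these differences was made, and a control sample that would separate LIMYB sites from a background common to both lines is not among the samples.

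Sharing rose with fold in both lines. Over 4 fold ranges, low to high, it was 25.8%, 35.3%, 41.7% and 70.5% in L1, and 30.2%, 39.3%, 48.0% and 58.1% in L4. Other nuclear peaks of the same fold ranges were shared in 32.5%, 35.5%, 49.7% and 73.6% in L1, and in 39.0%, 40.5%, 52.4% and 65.9% in L4. The members' share was below that of the others in each range of both lines, with overlapping intervals throughout. Shared members had a median fold of 10.44 in L1 and 13.23 in L4, and those found in 1 line had 8.42 and 10.56. Summits were upstream in 69.1% of shared L1 members and 71.4% of shared L4 members, against 61.9% and 58.0% of those not shared, with no test of the difference.

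**Figure D3:**
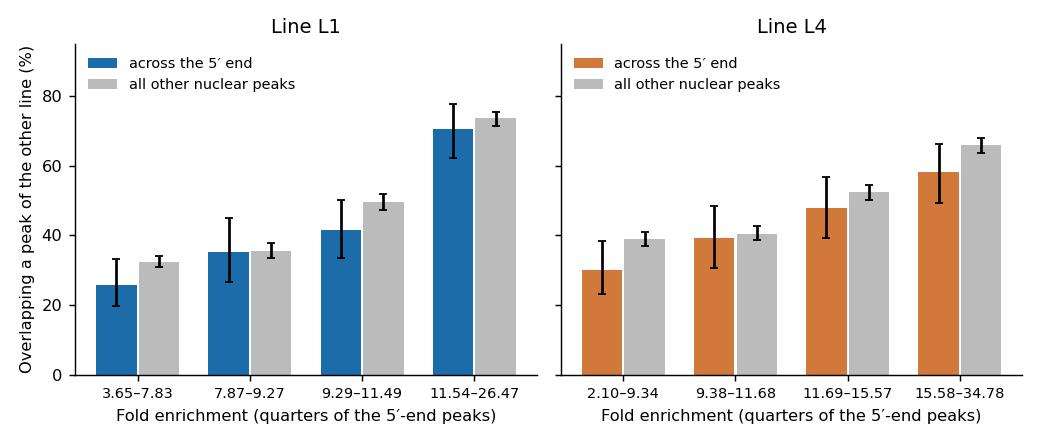
Share of peaks that overlap a peak of the other line (%, vertical axis) in 4 fold ranges set by the quartiles of the members' folds (horizontal axis) for members (coloured) and all other nuclear peaks (grey), L1 left and L4 right; whiskers are 95% Wilson intervals. Among members the share rises to 70.5% in L1 and 58.1% in L4.

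When a member was found again, the overlapping peak usually lay across a 5′ end as well. Of the 223 shared L1 members, 188 (84.3%) met an L4 peak that also lay across a 5′ end, 27 met one just upstream and 7 met one inside the gene. In 186 of the 188 pairs both peaks were assigned to the same gene, which follows largely from choosing overlapping peaks that both cover a gene start. Their summits lay a median of 23.0 bp apart, and 142 pairs (75.5%) had summits within 50 bp. The summits fell on the same side of the 5′ end in 164 pairs (87.2%), both upstream in 117 and both downstream in 47. The required overlap also limits how far apart summits can lie, and no other class of peak is set beside these pairs. Folds of the pairs were loosely related (Spearman's rho 0.362 and Pearson's r 0.413 over 188 pairs, a description of peaks that are not independent). The L4 fold was the higher one in 135 pairs, but the L4 folds of all nuclear peaks were also higher, with a median of 11.65 against 8.72, and no source says that both lists are on 1 scale.

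**Figure D4:**
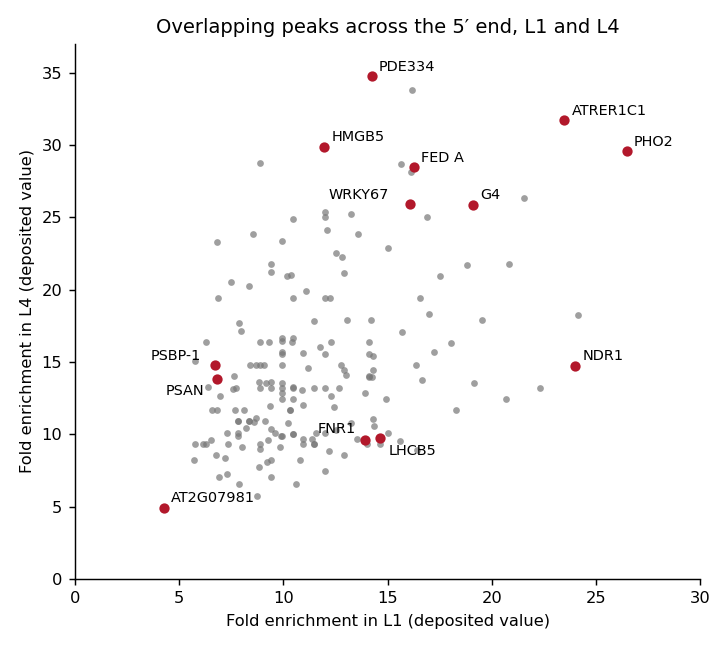
Fold enrichment in L1 (horizontal axis) and in L4 (vertical axis) for the 188 pairs of overlapping peaks across a 5′ end; points are pairs and red points are named genes. PHO2 and ATRER1C1 are high in both lines, PDE334 (34.78) and HMGB5 (29.89) are among the highest in L4 and NDR1 (24.02) in L1.

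The members named 522 genes in L1 and 498 in L4, 1 peak to a gene. Of 27444 nuclear protein-coding genes in the RefSeq table, 1.87% had such a peak in L1, 1.78% in L4, 0.660% in both and 2.99% in either; 13 of the 834 genes were not in the table. The 186 genes found in both lines were 35.6% of the L1 genes and 37.3% of the L4 genes. For most genes of 1 line the other list held nothing: of 336 genes with a 5′-end peak in L1 alone, 246 (73.2%) had no L4 peak of any kind, 55 had one upstream and 25 one inside. Of 312 such genes in L4, 226 (72.4%) had no L1 peak, 58 had one upstream and 21 one inside. Among all genes of the RefSeq table, 24.4% had an L4 peak of any location and 25.7% an L1 peak. The 336 and 312 genes were chosen for lacking a 5′-end peak in the other line, so their shares do not describe all member genes. Of all member genes, 246 of 522 in L1 had no L4 peak and 226 of 498 in L4 had no L1 peak. Whether genes with peaks of other classes differ in this was not tested. A further peak in the same line was assigned to 99 of the 522 genes in L1 and to 85 of the 498 in L4 (17.1%). No such share was computed for genes with peaks of other classes, so these counts are not shown to be particular to members. Gene length was ordinary: the median was 1965 bp for L1 member genes and 1918 bp for L4 member genes, against 2078 bp for all genes of the table. Few members touched a second gene named in the lists, 7 in L1 (1.34%) and 12 in L4 (2.41%), which is a lower limit because only genes with a peak are named. A single peak lay over the starts of 2 genes that point away from each other in 3 cases. These were AT5G19730 and AT5G19729 in L1 (fold 16.38, starts 36 bp apart), AT1G65030 and AT1G65020 in L4 (9.34, 165 bp) and AT3G29305 and AT3G29310 in L4 (28.68, 161 bp).

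The strongest 5′-end peak common to both lines was at PHO2 (AT2G33770), which encodes a ubiquitin-conjugating enzyme that restrains phosphate uptake. On chromosome 2 the L1 peak ran from 14282875 to 14283131, with a pileup of 63 and a fold of 26.47. The L4 peak ran from 14282878 to 14283122, with a pileup of 38 and a fold of 29.58. Its summits lay 30 bp downstream of the gene start in L1 and 7 bp downstream in L4. ATRER1C1 (AT2G23310), a gene named for a protein of retention in the endoplasmic reticulum, followed with an L1 fold of 23.49 and an L4 fold of 31.72. Its summits lay 112 bp upstream in L1 and 133 bp in L4. AT2G25460 reached 21.54 in L1, where the summit was 89 bp upstream, and 26.32 in L4, where it was 87 bp upstream.

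Ranked by the lower of both folds, the next were ATATH8 (20.83 in L1 and 21.79 in L4) and G4 (19.09 and 25.89). AT5G66053 had 18.8 and 21.74, and AT1G26500 had 24.14 and 18.24. AT4G28410 had 19.55 and 17.9, AT4G28340 had 17.5 and 20.95, and AT2G31040 had 17.01 and 18.31. In all 10 of these genes the L1 and L4 peaks overlapped. The summit was on the gene side in both lines for PHO2, AT1G26500, AT4G28410 and AT4G28340, on either side for AT2G31040 and on the promoter side for the other 5.

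A few genes with a high fold in 1 line had a lower one in the other, though no source says that both lists are on 1 scale. NDR1 (AT3G20600), a membrane protein gene of resistance to bacteria, had a pileup of 86 and a fold of 24.02 in L1, against 23 and 14.74 in L4. MAC5B (AT2G29580) had a fold of 23.08 in L1, where L4 had an overlapping peak that stopped upstream of the gene (9.49). In L4 the highest folds were at PDE334 (34.78, with 14.23 in L1) and AT1G73885 (33.85, with 16.19 in L1). HMGB5 (AT4G35570), for a high-mobility-group chromatin protein, had 29.89 in L4 and 11.97 in L1. The L1 folds of PDE334, AT1G73885 and HMGB5 were themselves above the upper quartile of L1 members, 11.49. With 1 list per line, whether these differences exceed the spread between samples cannot be said.

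At the weak end, the lowest −log10 q among L1 members was 2.92, at HB28 with a pileup of 9 and a fold of 4.7. RLP44, a receptor-like protein gene, had 3.59 and AT2G07734 had 3.76. In L4 the lowest were AT5G40690 (3.42, pileup 8), AT5G34581 (3.55) and AT5G13890 (3.72). None of these L1 peaks overlapped an L4 peak, whereas those at AT5G34581 and AT5G13890 did overlap an L1 peak. The widest members were at AT2G07773 (696 bp in L1 and 625 bp in L4), AT1G04150 (585 bp) and AT1G22900 (520 bp in L1 and 601 bp in L4). In L4 they were at AT2G07718 (962 bp), AT3G41762 (874 bp) and AT2G04680 (732 bp).

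Genes of photosynthesis were found among the members in each of the 6 functional groups examined, in at least 1 line. Of 101 genes in 6 lists, 9 had a 5′-end peak in L1 (8.91%, 4.76 to 16.1, against 1.87% of all genes). In L4, 11 did (10.9%, 6.19 to 18.5, against 1.78%), and 7 did in both (6.93%, 3.4 to 13.6, against 0.660%). Peaks of any location were assigned to 45 of the genes in L1 (44.6%, against 25.7% of all genes) and to 55 in L4 (54.5%, against 24.4%). A 5′-end peak was held by 9 of these 45 genes in L1 and 11 of these 55 in L4, against 7.28% and 7.29% of all genes with a peak. The lists were chosen because the study is about such genes and with earlier results at their promoters known, so the counts are a description with no test, and no independent evidence. The median fold of the photosynthesis members was 13.91 in L1 and 15.57 in L4, against 9.28 and 11.68 for all members, and their summits were upstream in 5 of 9 and 8 of 11.

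**Figure D5:**
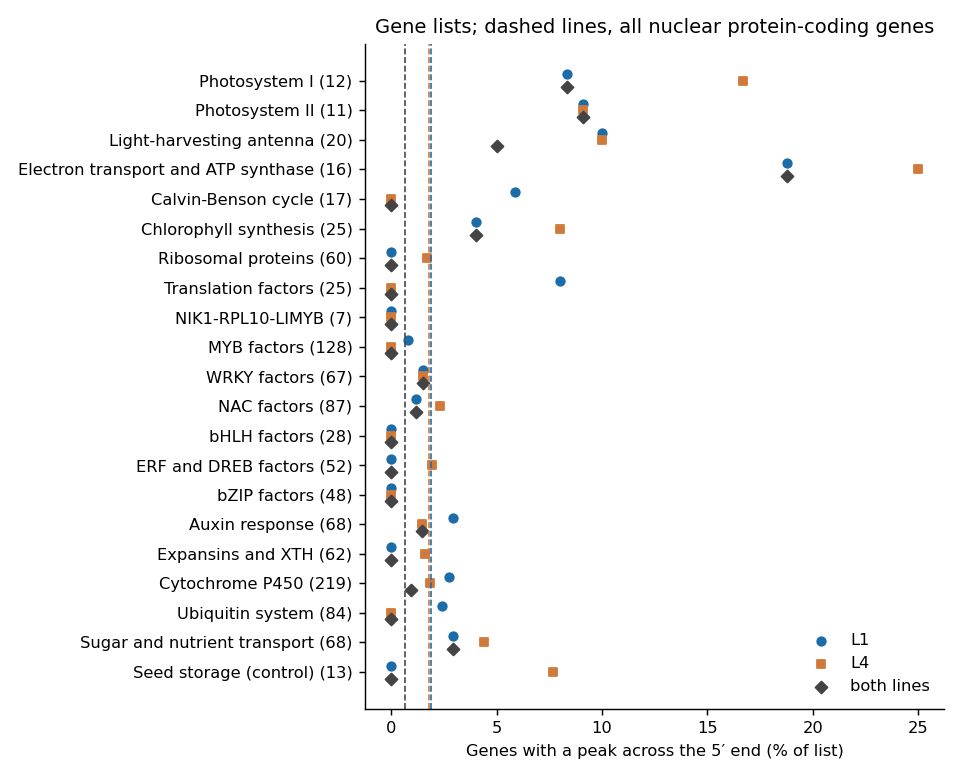
Share of the genes of each list that have a peak across the 5′ end (%, horizontal axis) in L1, in L4 and in both lines, with the number of genes in brackets; dashed lines are the shares over all nuclear protein-coding genes. Electron transport and ATP synthase genes reach 3 of 16 in L1, 4 of 16 in L4 and 3 of 16 in both.

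Electron transport and the plastid ATP synthase had the most members of any photosynthesis list, 3 of 16 genes in L1 and 4 in L4. PDE334 (AT4G32260), for a subunit of the plastid ATP synthase, had an L1 peak on chromosome 4 from 15574499 to 15574773. Its L4 peak ran between 15574478 and 15574836. Its pileup was 35 in L1 and 80 in L4, with summits 85 and 76 bp inside the gene. FED A (AT1G60950), the main leaf ferredoxin, had pileups of 42 in L1 and 41 in L4, folds of 16.28 and 28.47, and summits 137 and 133 bp upstream. FNR1 (AT5G66190), which passes electrons from ferredoxin to NADP, had 13.91 and 9.6, with summits 46 and 59 bp inside the gene. PETE1, for plastocyanin, which carries electrons to photosystem I, had a 5′-end peak in L4 (21.83), where L1 had an overlapping peak just upstream (8.35). The 3 genes found in both lines thus had their summits on different sides of the start, each on the same side in L1 and L4.

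Antenna and photosystem genes followed. LHCB5 (AT4G10340), for a minor antenna protein of photosystem II, reached 14.62 in L1 and 9.72 in L4, and its summits lay 104 bp upstream in L1 and 156 bp in L4. LHCB4.3 had a member in L1 (9.4) that overlapped no L4 peak. CAB2 had one in L4 (6.44), and an upstream peak in L1 (6.13), in a cluster of near-identical antenna genes whose reads may not be told apart. PSBP-1 (AT1G06680), for a protein of the oxygen-evolving complex, had 6.73 and 14.79. PSAN (AT5G64040), for a photosystem I subunit on the lumen side, had 6.79 and 13.82; it is the list member whose summit changed sides, inside the gene in L1 and upstream of it in L4. PSAD-2, for the subunit that docks ferredoxin, had a member in L4 (22.57) with its summit 4 bp upstream, where L1 had an upstream peak (6.79).

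In pigment and carbon metabolism G4 (AT3G51820), for chlorophyll synthase, had pileups of 42 in L1 and 58 in L4. Its peaks had the same end, 19219326 on chromosome 3, and starts of 19218990 in L1 and 19218986 in L4. CRD1, of an earlier step of chlorophyll synthesis, had a member in L4 (15.57) that overlapped no L1 peak. SBPASE, a Calvin-Benson cycle enzyme gene, had one in L1 (9.4), and 0 of 17 genes of that cycle had one in L4 (interval up to 18.4%).

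Further plastid genes were among the 186 found in both lines; they were picked after their values were seen. TLP18.3, for a thylakoid protein of photosystem II repair, reached 8.1 in L1 and 11.69 in L4. PnsL4 had 6.79 and 11.68 and Pnsl5 had 10.31 and 11.68, both for lumen subunits of the NDH complex of cyclic electron flow. DIT2.1, for a plastid dicarboxylate transporter, had 11.74 and 16.03, with summits 3 and 7 bp downstream. PDV2, of plastid division, had 10.44 and 16.67, and RBP31, for a plastid RNA-binding protein, had 9.92 and 14.79.

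Translation genes found by name had few members. Of 85 such genes, 2 had one in L1 (2.35%) and 1 in L4 (1.18%), beside 1.87% and 1.78% of all genes. Of 60 ribosomal protein genes found by name, 0 had a 5′-end peak in L1 (interval up to 6.02%) and 1 did in L4 (1.67%, 0.295 to 8.86), next to 1.87% and 1.78% of all genes. That gene was RPL12-C (17.12), which encodes a plastid ribosomal protein. A symbol was given for 37.8% of all genes in the RefSeq table, so ribosomal protein genes without one could be missed. The counts therefore do not describe the whole family. Of 25 translation factor genes, 2 had one in L1, EIF2 (AT2G39990, 7.83) and EIF4G (6.57), and 0 in L4 (interval up to 13.3%). None of these 85 genes had a 5′-end peak in both lines (interval up to 4.32%), beside 0.660% of all genes. No peak of these 3 genes overlapped one of the other line, while 42.7% of all L1 members and 43.6% of all L4 members did. Of the 7 genes of the NIK1, RPL10 and LIMYB module, 0 had a 5′-end peak in either line (interval up to 35.4%). Beside 1.87% of all genes in L1 and 1.78% in L4, 7 genes are too few to show an absence. Elsewhere on these genes L1 had a peak over the 3′ end of RPL10B (8.35) and one inside SAG24 (8.5). At LIMYB (AT5G05800) both lists placed 1 peak within the gene, with the summit 1047 bp from the start in L1 (6.15) and 1523 bp in L4 (13.31). Reads of the transgene and of the gene itself cannot be told apart there.

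The transcription factor lists had 5 genes with a peak over the start in either line. Of 410 genes in 6 families, 3 had a 5′-end peak in L1 (0.732%, 0.249 to 2.13, against 1.87% of all genes) and 4 in L4 (0.976%, 0.380 to 2.48, against 1.78%), and both intervals include the share of all genes. With a summit within 200 bp of the start in place of a spanning peak, 8 of them were counted in L1 and 9 in L4, where 3.09% and 2.82% of all genes were. Peaks of any location were found at 126 of them in L1 (30.7%, against 25.7% of all genes) and 130 in L4 (31.7%, against 24.4%). Of those with a peak, 2.38% had it across the 5′ end in L1 (against 7.28% of all genes with a peak) and 3.08% in L4 (against 7.29%). WRKY67 (AT1G66550), of a family with many defence regulators, reached 16.07 in L1 and 25.93 in L4, and its summits lay 80 bp upstream in L1 and 75 bp in L4. NAC1, a regulator of lateral root growth under auxin, had 7.35 and 9.34. NAC064 (16.67) and ERF110 (22.57) had a member in L4 and MYB92 (6.25) in L1. None of these 3 overlapped a peak of the other line, as was the case for most members. Of 28 bHLH and 48 bZIP genes, 0 had a 5′-end peak in either line (intervals up to 12.1% and 7.41%).

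Transport, metabolism and hormone genes had between 0% and 4.41% of their number among the members in either line, beside 1.87% of all genes in L1 and 1.78% in L4, and no test of these shares was made. Of 68 sugar and nutrient transport genes, 2 had a member in L1 (2.94%) and 3 in L4 (4.41%). They were PHO2, NRT1.5, a root nitrate transporter gene (11.49 in L1 and 9.34 in L4), and in L4 the sugar transporter gene STP14 (6.91). Of 219 cytochrome P450 genes, 6 had a member in L1 (2.74%) and 4 in L4 (1.83%). CYP706A6 (13.54 and 9.64) and CYP71A28 (9.92 and 12.86) had one in both lines. The remaining 6 genes, some of them named after their values were seen, were CYP71B14 (10.43), CYP83A1 (9.6), CYP71A20 (8.35) and CYP71B31 (8.2) in L1, and CYP71B29 (10.56) and CYP71B6 (9.15) in L4. The summit was upstream in 6 of 6 L1 peaks and 4 of 4 L4 peaks of this family, beside 64.9% and 63.9% of all members, a description of few peaks. In the auxin list of 68 genes, IAA34 had a member in both lines (7.83 and 10.9), with the summit 66 bp downstream in each, and the auxin transporter gene PIN8 in L1 (11.61). In the ubiquitin list of 84 genes, PUB12 (10.71) and PUB23 (7.31) had one in L1 and 0 genes had one in L4. PHO2, a ubiquitin-conjugating enzyme gene with a member in both lines, was placed in the transport list and is not counted among these 84. XTH4 (9.88) was the single member among 62 expansin and xyloglucan enzyme genes, and CRU2 (22.05), a seed storage protein gene, among 13 control genes, both in L4, where 1.78% of all genes had one.

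Signalling and growth regulators outside the lists, picked after their values were seen, also had 5′-end peaks in both lines. RGA1 (AT2G01570), for a DELLA repressor of gibberellin responses, reached 7.83 in L1 and 10.9 in L4. MPK11, for a MAP kinase, had 7.96 and 17.12, with summits 46 bp upstream and exactly on the gene start. CDC20.2, for an activator of the anaphase-promoting complex, had 12.89 and 21.15. ELF7 (AT1G79730), for a subunit of the PAF1 complex that travels with RNA polymerase II, had 6.79 and 23.33. IAGLU, for an enzyme that joins glucose to auxin, had 12.27 and 12.62, with summits 42 and 43 bp upstream.

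Part of the members lay in a stretch of chromosome 2 where a copy of the mitochondrial genome is inserted in Arabidopsis. Between 3000001 and 4000000 lay 7 of 522 members in L1 and 12 of 498 in L4. Of all nuclear peaks, 156 of 9604 in L1 and 154 of 8952 in L4 lay there, so the stretch is not particular to the members. The median pileup of these members was 48 in L1 and 50.5 in L4, against 19 and 17 for all other members. Their median fold was 7.88 and 6.78, against 9.29 and 11.76. Non-member peaks of the stretch were not compared in pileup or fold. The highest pileups of all members were here: 282 at AT2G07981 in L1 (fold 4.27), where L4 had 212 (4.91), and 248 at AT2G07722 in L4 (14.45), where L1 had 118 (14.29). Whether reads of mitochondrial DNA contribute to these pileups was not tested. Without this stretch the share of members found in the other line was 42.1% in L1 and 43.2% in L4, and the share of upstream summits was 65.6% and 64.6%.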

How the data were processed

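Chromatin immunoprecipitation peaks came as 1 list for each of the lines L1 and L4. The submitters' processing notes name MACS2. No source used here gives its version or settings, the aligner, the build, the control track or any pooling of replicates. The pileup is a signal at the summit, per the file headers. The deposited fold enrichment is a ratio whose denominator no header names. Per the file headers, the q-value of a peak was written as −log10. The authors assigned each peak to the nearest mRNA gene, per the columns of the deposited files.

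Peaks were counted once by position. Members had the location class overlapStart. Recomputing it from the peak and gene coordinates of the same files kept all members and added 2 peaks in L1 and 1 in L4, which the authors' annotation classed as inside the gene. Sharing meant an overlap of at least 1 bp. Symbols and gene lengths were taken from RefSeq (TAIR10.1), without its coordinates. Gene lists were symbol patterns in that table; after the table was seen, unrelated genes with like symbols were dropped and a few synonyms added. The members and lists were chosen with earlier results of these data known. Named genes were the 10 highest by the lower fold of both lines, the 5 highest in each line, up to 6 shared and 3 unshared members per list, module genes with any peak, and the 3 weakest and 3 widest peaks of each line. Other names are said to be picked after their values were seen. Overlap and class calls were tested on simulated data. Tools were pandas 2.3.3, scipy 1.17.1, numpy 2.4.6 and matplotlib 3.10.9 under Python 3.11.15.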

Additional observations from a re-analysis of the deposited data

Results flagged for a closer look

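Organelle peaks were not part of the comparisons above, and no control sample gives a level to set them against. Of 155 organelle peaks in L1, 23 lay across the 5′ end of an organelle gene (14.8%, 10.1 to 21.3), 15 on the plastid and 8 on the mitochondrial genome. Of 193 in L4, 39 did (20.2%, 15.1 to 26.4), 20 and 19. Their median fold was 5.32 in L1 and 4.14 in L4. L3 had 3 such peaks among its 12, all on the plastid genome.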

How the results depend on the processing

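No paired analysis was possible because the lists carry no values per replicate, so no replicate could be left out either. Promoter motif shares were not run, since no promoter sequences were used here. Recomputing the class from coordinates kept every member and added 2 peaks in L1 (5.46%) and 1 in L4 (5.57%). With −log10 q of 10 or more, the 5′-end share of L1 was 6.04%, the median fold 10.96 in L1 and 14.79 in L4, and genes found in both lines 116 (against 186), with 4 of 101 photosynthesis genes in both (0.408% of all genes) and 0 of 85 translation genes in L1 (1.09% of all genes). With peaks within 10000 bp of their gene, the share was 6.18% in L1 and 6.27% in L4. Counting only 5′-end peaks of the other line, 36% of L1 and 37.8% of L4 members were shared. Among shared members, 69.1% of L1 and 71.4% of L4 summits were upstream, and median folds were 10.44 and 13.23. With a summit within 200 bp of the start in place of a spanning peak, 4 translation genes were found in L1, 3 in L4 and 1 in both, where this window takes 3.09%, 2.82% and 1.14% of all genes. Of the 132 counts for the other gene lists, 88 were equal or stayed within 1.5 times and 44 moved further. Leaving out the chromosome 2 stretch was chosen after seeing the data. Depth per sample is unknown, so a gene without a peak is not shown to be unbound.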
